A study of Homo sapiens with 12 samples.

Results

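MDA-MB-231, a human breast cancer cell line that lacks the estrogen receptor, was exposed for 14 days to 1 of 2 DOT1L inhibitors, and the transcripts of cells given compound 1 were compared directly with those of cells given compound 2. Compound 1 is EPZ004777, and compound 2 is the agent that the series cites as Compound 55. The comparison used the 8 compound arrays of the 12 in the series, chosen by sample title: 4 of compound 1 (2 at 1 μM and 2 at 5 μM) and 4 of compound 2 (2 at 2 μM and 2 at 10 μM). The 2 arrays of a group are called biological replicates in the labels, and cells were plated in duplicate wells, so p-values measure only the spread between these arrays. The 2 control arrays (DMSO, 14 days) were left out of the comparison and are shown beside it. The 2 remaining arrays hold an siRNA experiment and were not used for the comparison.

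DOT1L is the enzyme that places methyl groups on H3K79, a lysine in the core of histone H3, and the mark is found over the bodies of transcribed genes. Inhibitors of this kind act on the enzyme and not on its transcript, and the mark is lost slowly as histones are replaced and cells divide. In leukemias with a rearranged MLL gene, fusion proteins bring DOT1L to HOX and MEIS genes. Setting a pair of inhibitors of the same enzyme against each other asks which transcripts respond alike to both and which do not.

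The concentrations were not matched. At the low dose level compound 1 was given at 1 μM and compound 2 at 2 μM, and at the high level compound 1 at 5 μM and compound 2 at 10 μM. Any difference between the compounds therefore holds agent and concentration together, and these cannot be told apart. The level of a probe is the log2 of its background-corrected signal minus the median of its array, so that 0 is the median of the 11,807 probes detected on all 12 arrays. A difference is the level with compound 1 minus the level with compound 2, averaged over the dose levels, so that a positive value is higher with compound 1. Probes detected on both arrays of at least 1 of the 4 compound groups were tested, 17,370 in number, and 14,165 of them were detected on all 8 arrays.

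Replicate arrays correlated at r = 0.991 to 0.993. Pairs of arrays from different compounds correlated at 0.988 to 0.995 (16 pairs), and pairs from the same compound at different doses at 0.989 to 0.994 (8 pairs). The arrays of one compound were thus no more alike than arrays of different compounds. The first principal component held 28.7% of the variance and set 2 arrays apart, compound 1 at 5 μM replicate 1 (score 23.5) and compound 2 at 2 μM replicate 2 (score 14.95), against -12.6 to 2.97 for the other 6. These 2 arrays, 1 from each compound, also had the highest median raw signals, 13.8 and 14.9 against 9.9 to 11.4. Counts are therefore also given without both.

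No transcript was found to differ between the compounds. None of the 17,370 probes passed the test with doses pooled (limma with dose level as a covariate, Benjamini-Hochberg adjusted p below 0.05), and the lowest adjusted p was 0.9999. At an unadjusted p below 0.05 there were 761 probes, which is 4.38% of those tested. Of these, 311 were higher with compound 1 (1.79%) and 450 higher with compound 2 (2.59%). All 4 arrays of compound 1 lay above all 4 of compound 2 for 236 probes (1.36%), and the reverse held for 208 (1.2%). Without the 2 arrays that stand apart the number of calls was again 0, with 895 probes at an unadjusted p below 0.05.

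The differences themselves were small. They ran from -0.71 to 0.66 on the log2 scale, with a median of -0.0037, and the 95th and 99th percentiles of their size were 0.25 and 0.35. Only 5 probes differed by more than 1.5-fold and none by more than 2-fold. The median standard error was 0.10, and the 95% interval of a single probe reached a median of 0.23 to either side. The whole interval lay within 1.5-fold for 16,543 probes (95.2%), and it reached 2-fold or more for 8. These intervals are not adjusted for the number of probes. To pass alone, a probe would have needed a limma p as low as 2.88e-06. At the median standard error this is a difference of 1.00, or 2-fold, so that smaller differences in single genes were mostly out of reach of the test.

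Since no probe passed between the compounds, none of those that changed against control did, and only the size of their differences is described. Against control, with the mean of the 8 compound arrays, 1951 probes passed (11.2% of those tested), 980 higher and 971 lower. The mean over both compounds gives each the same weight and so favours neither. Among these 1951 probes the median difference between the compounds was 0.0014. For 1911 of them (97.9%) the interval of the difference lay within 1.5-fold. An unadjusted p below 0.05 was held by 111 (5.69%, against 4.38% of all probes). Of the 116 probes that changed more than 2-fold, 112 rose and 4 fell. Among these 116 the interval lay within 1.5-fold for 107 (92.2%, against 95.2% of all probes), and 11 (9.48%) had an unadjusted p below 0.05. The share was 19.6% of the 286 probes that passed against control with compound 1 only and 15.8% of the 551 that passed with compound 2 only, sets whose selection itself favours a difference between the compounds. Of the 1951 probes 129 were detected on neither control array, 24 of the 116 among them, so that their response is a lower bound. Both compounds were measured against the same 2 control arrays, so their responses are not independent of each other, whereas the difference between them does not use the controls.

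**Figure D1:**
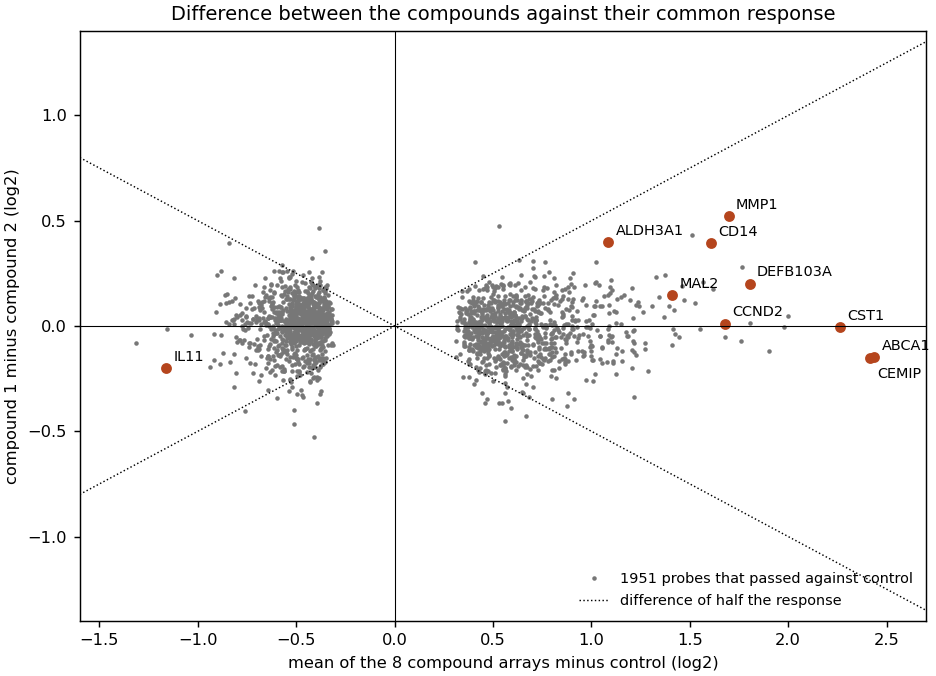
Each point is 1 of the 1951 probes that passed against control, placed by the mean response of the 8 compound arrays (horizontal, log2) and the difference between compound 1 and compound 2 (vertical, log2). Dotted lines mark a difference of 50% of the response; the probes shown were selected for their response. The points form a flat band around 0, and CEMIP, ABCA1 and CST1, with the largest responses, lie at -0.15, -0.15 and -0.0040.

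CEMIP, whose product takes part in the breakdown of hyaluronan, was among the strongest responders. Its level was -1.08 and -0.85 with compound 1 at 1 μM and -0.74 and -0.93 at 5 μM. Compound 2 gave -0.94 and -0.78 at 2 μM and -0.52 and -0.74 at 10 μM. In the control arrays, at -3.06 and -3.42, it was not detected. The arrays of the compounds overlapped, and the difference was -0.15 (SE 0.098, 95% interval -0.37 to 0.07). Set against the lowest detected level of the control arrays, CEMIP was at least 3.67-fold higher than control with compound 1 and at least 4.07-fold with compound 2.

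CST1, which encodes a secreted cystatin that inhibits cysteine proteases, had nearly the same mean with both compounds. It stood at 3.46 and 3.48 with compound 1 at 1 μM, 3.48 and 3.57 at 5 μM, 3.39 and 3.38 with compound 2 at 2 μM and 3.61 and 3.62 at 10 μM. The control arrays lay apart from each other, at 1.88 and 0.58. The difference between the compounds was -0.0040 (SE 0.079, 95% interval -0.18 to 0.17), so a difference of more than 1.13-fold lay outside the interval. The related cystatin CST4 differed by -0.0068, and since cystatin genes resemble each other closely, their probes may share signal.

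ABCA1, the exporter of cellular cholesterol, was level with both compounds at the low doses and parted at the high ones. Its values were 2.44 and 2.36 with compound 1 at 1 μM and 2.36 and 2.25 with compound 2 at 2 μM. At the high level they were 2.00 and 2.08 with compound 1 at 5 μM and 2.37 and 2.49 with compound 2 at 10 μM, where the arrays did not overlap. The pooled difference was -0.15 (95% interval -0.39 to 0.10). The difference at the high level was -0.39 (95% interval -0.66 to -0.12, unadjusted p = 0.0096), which did not pass after adjustment over the probes of both levels. ABCG1, a second sterol exporter, differed by -0.21 (95% interval -0.50 to 0.08).

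Cyclin D2, encoded by CCND2, drives entry into the cell cycle. Its level was 0.98 and 0.74 with compound 1 at 1 μM, 0.67 and 0.69 at 5 μM, 0.71 and 0.76 with compound 2 at 2 μM and 0.69 and 0.86 at 10 μM, all above the controls at -1.01 and -0.83. The difference was 0.012 (95% interval -0.20 to 0.22). CA12, a carbonic anhydrase of the cell surface, differed by -0.050 (95% interval -0.29 to 0.19), MUC1, a mucin of the epithelial surface, by 0.13 (-0.06 to 0.32), and TGFBI, a matrix protein induced by TGF-beta, by 0.095 (-0.09 to 0.28). ACTA2, the smooth muscle actin, differed by 0.0073 (-0.18 to 0.20). Each of these 5 genes rose with each compound against control (limma adjusted p = 2.47e-05 to 0.0035), and none showed a difference between compounds beyond its spread. A second CA12 probe gave 0.14 (-0.06 to 0.34) and a dim further MUC1 probe -0.24 (-0.51 to 0.03), both of the other sign with intervals across 0.

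MAL2, which takes part in sorting proteins to the apical membrane of epithelial cells, lay farther apart between dose levels than between compounds. It stood at -2.26 and -2.45 with compound 1 at 1 μM and at -2.57 and -2.40 with compound 2 at 2 μM. At the high level it stood at -1.87 and -1.54 with compound 1 and at -1.83 and -1.90 with compound 2. All 4 arrays of the high level lay above all 4 of the low level. The high level exceeded the low by 0.64 (SE 0.099, limma unadjusted p = 8.57e-05), whereas the compounds differed by 0.15 (95% interval -0.08 to 0.37). Over all probes no dose effect passed the adjustment either (0 of 17,370, with 1033 at an unadjusted p below 0.05).

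**Figure D2:**
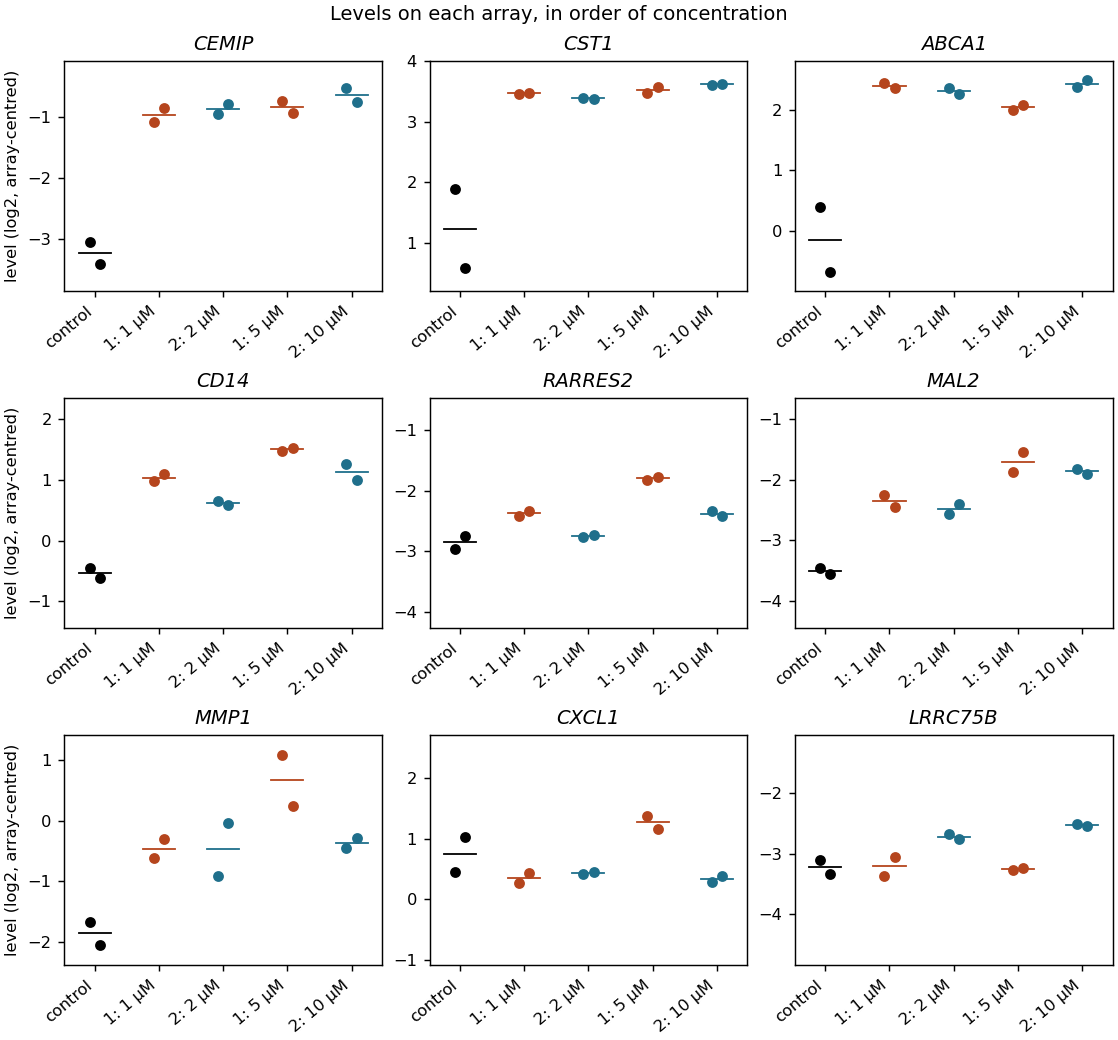
Levels of 9 genes on each array (vertical, log2, centred on the array's median; every panel spans the same range), with controls in black, compound 1 in red and compound 2 in blue, in order of concentration; short lines are group means of 2 arrays. CEMIP and CST1 are level across all 4 treatments, MAL2 lies higher on all arrays of the high dose level, CD14 and RARRES2 lie higher with compound 1 at each level, and CXCL1 and MMP1 lie apart only at the high level.

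Of the responders named from earlier results, CD14 had the smallest p between the compounds. It encodes a co-receptor for bacterial lipopolysaccharide. Its level was 0.98 and 1.09 with compound 1 at 1 μM and 0.65 and 0.59 with compound 2 at 2 μM. At the high level it was 1.48 and 1.54 with compound 1 and 1.26 and 1.00 with compound 2, against -0.45 and -0.62 in the controls. Within each dose level the arrays did not overlap, although the lower dose of compound 1 overlapped the higher dose of compound 2. The difference was 0.40, or 1.32-fold (SE 0.087, 95% interval 0.20 to 0.59, limma unadjusted p = 0.0012, adjusted p = 0.9999). A second CD14 probe gave 0.43 (95% interval 0.19 to 0.68). The response to compound 1 was 1.81 and that to compound 2 1.41.

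ALDH3A1, an aldehyde dehydrogenase, showed the same order. Its values were -1.25 and -1.10 with compound 1 at 1 μM, -0.80 and -0.71 at 5 μM, -1.41 and -1.65 with compound 2 at 2 μM and -1.32 and -1.08 at 10 μM. The lowest arrays were thus those of compound 2 at its lower dose and the highest those of compound 1 at its higher dose. The difference was 0.40 (SE 0.095, 95% interval 0.18 to 0.61, unadjusted p = 0.0021), against responses of 1.28 and 0.89. AKR1C3, an aldo-keto reductase that rose 1.67 and 1.46 with compound 1 and compound 2, differed by 0.21 (95% interval 0.02 to 0.39, unadjusted p = 0.032).

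IL11, a cytokine of the interleukin-6 family, fell with both inhibitors, from 0.56 and 0.45 in the controls. It stood at -0.47 and -0.67 with compound 1 at 1 μM, -0.94 and -0.94 at 5 μM, -0.31 and -0.49 with compound 2 at 2 μM and -0.73 and -0.70 at 10 μM. The difference was -0.20 (SE 0.085, 95% interval -0.39 to -0.0096, unadjusted p = 0.041). Like CD14 and ALDH3A1, its mean was farther from control with compound 1 within each dose level, although its arrays overlapped at the low level. None of these 3 genes passed the adjustment. DEPP1 and SLC2A3, named after their values were seen, rose with both compounds but leaned to compound 2. They differed by -0.34 (95% interval -0.64 to -0.03) and -0.23 (-0.42 to -0.04). Of the 116 probes that changed over 2-fold, 11 had an unadjusted p below 0.05. Of these, 8 were higher with compound 1 and 3, IL11 among them, with compound 2.

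MMP1, the interstitial collagenase, had the widest interval of the named responders. Its level was -0.61 and -0.31 with compound 1 at 1 μM and -0.91 and -0.03 with compound 2 at 2 μM, so the low level overlapped. At the high level it was 1.09 and 0.24 with compound 1 and -0.45 and -0.29 with compound 2. The pooled difference was 0.52 (SE 0.27, 95% interval -0.08 to 1.13, unadjusted p = 0.083), so that up to 2.18-fold lay within the interval. The high value of 1.09 came from compound 1 at 5 μM replicate 1, 1 of the 2 arrays that stand apart, and without it the difference was 0.25. Without compound 2 at 2 μM replicate 2, the other array that stands apart, it was 0.80, and without both 0.53. MMP3, the stromelysin, lay at -2.70 and -2.68 with compound 1 at 1 μM, -2.22 and -1.85 at 5 μM and -3.12 to -2.76 on the 4 arrays of compound 2, a difference of 0.56 (95% interval 0.20 to 0.92, unadjusted p = 0.0061) close to the detection limit. MMP3 was named after its values were seen.

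DEFB103A, which encodes an antimicrobial beta-defensin and has a near-identical gene copy, was -1.68 and -1.03 with compound 1 at 1 μM. At 5 μM it was -0.32 and -0.38. Compound 2 held it between -1.11 and -0.96 on all 4 arrays. The pooled difference was 0.20 (95% interval -0.25 to 0.65), and it ran from 0.077 to 0.43 with each array left out in turn. The difference was -0.28 at the low and 0.68 at the high level, 0.96 apart (SE 0.27, unadjusted p = 0.0066), which did not pass over all probes. A second DEFB103A probe, dimmer but also detected on all 8 arrays, did not show this turn of direction. It gave 0.16 at the low and 0.41 at the high level, 0.25 apart (unadjusted p = 0.25), and a pooled difference of 0.28 (95% interval 0.05 to 0.51, unadjusted p = 0.023).

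By the rule for named genes, the 5 genes with the smallest p in each direction are given, with no call. RARRES2, the secreted chemoattractant chemerin, leaned to compound 1. It stood at -2.42 and -2.33 with compound 1 at 1 μM, -1.82 and -1.77 at 5 μM, -2.76 and -2.73 with compound 2 at 2 μM and -2.34 and -2.42 at 10 μM. The lower dose of compound 1 and the higher dose of compound 2 gave overlapping values. The difference was 0.48 (SE 0.083, 95% interval 0.29 to 0.66, unadjusted p = 2.01e-04). The controls lay at -2.96 and -2.75, near the detection limit, and the probe was detected on only 1 of them. RARRES2 passed against control with compound 1 (0.77, limma adjusted p = 0.0020) and not with compound 2 (0.29, adjusted p = 0.10), yet the direct difference did not pass.

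CD14 was another of the 5 that leaned to compound 1, and the remaining 3 were, like RARRES2, represented by dim probes. CYSRT1 ranged from -2.004 to -1.15 with compound 1 and from -2.29 to -2.09 with compound 2, without overlap, a difference of 0.54 (95% interval 0.27 to 0.81). SLC9A5, a sodium-proton exchanger, was detected on all 4 arrays of compound 1 and on none of compound 2. It thus passed the detection filter only through the compound where it is higher, and only a bound can be given. Its fitted difference was 0.37 (0.18 to 0.56), with means of -2.81 and -3.17, and set against the lowest detected level of each array it was at least 1.09-fold higher with compound 1. ISM1, which encodes the secreted protein isthmin, was named through its dimmer probe. That probe was likewise detected, and passed the filter, with compound 1 alone and differed by 0.42 (0.20 to 0.63). The brighter ISM1 probe, detected on all 8 arrays, had means of -1.38 with compound 1 and -1.425 with compound 2 and differed by 0.046 (95% interval -0.18 to 0.27, unadjusted p = 0.66). The 2 probes thus disagree, and no difference of the gene is drawn from the dimmer one.

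LRRC75B had the smallest p of all probes tested. It stood at -3.36, -3.06, -3.28 and -3.24 on the 4 arrays of compound 1, none of which was detected, and at -2.68, -2.76, -2.51 and -2.55 on those of compound 2, all of which were. The groups did not overlap, but the probe passed the detection filter only through compound 2, where it is higher. Its p and interval are therefore given as a description only. The fitted difference was -0.61 (SE 0.096, 95% interval -0.83 to -0.40, unadjusted p = 9.44e-05, adjusted p = 0.9999), and against the lowest detected level it was at least 1.26-fold higher with compound 2. The controls lay with compound 1, at -3.10 and -3.34, and were not detected either.

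SRGAP1, which encodes a GTPase-activating protein of the Slit and Robo pathway, was the only 1 of the 5 that leaned to compound 2 with a level above 0. Its level was 0.34 and 0.07 with compound 1 at 1 μM, 0.06 and -0.14 at 5 μM, 0.82 and 0.60 with compound 2 at 2 μM and 0.71 and 0.37 at 10 μM. All 4 arrays of compound 2 lay above those of compound 1, and the controls, at 0.85 and 0.52, lay with compound 2. The difference was -0.55 (SE 0.11, 95% interval -0.80 to -0.30, unadjusted p = 6.73e-04). MAST2, a microtubule-associated kinase, differed by -0.44 (-0.62 to -0.26), VSIG10 by -0.53 (-0.74 to -0.31) and PAFAH2, an enzyme that breaks down platelet-activating factor, by -0.41 (-0.61 to -0.21). The arrays of these 3 genes did not overlap either, and each had a mean level between -2.88 and -2.18.

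**Figure D3:**
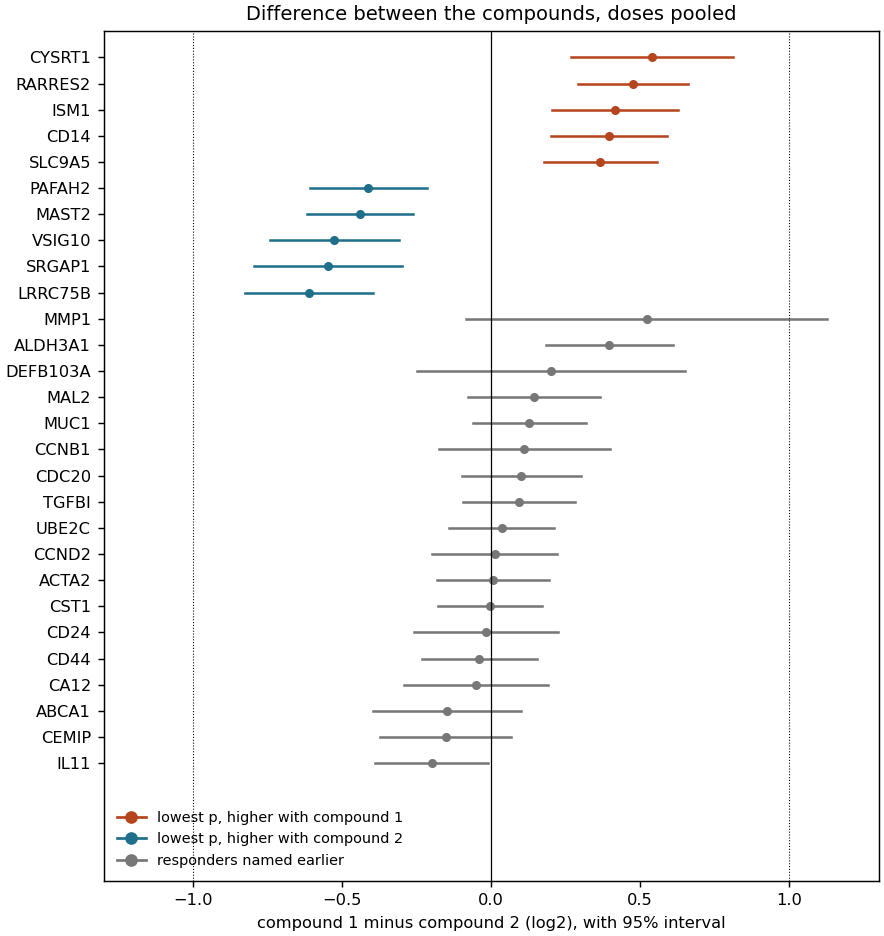
Points are the differences between the compounds with doses pooled (log2, 4 arrays a compound) and lines their 95% intervals, for the 5 genes with the smallest p in each direction and the responders named in earlier results; dotted lines mark 2-fold. ISM1 is shown by its dimmer probe, which, like those of SLC9A5 and LRRC75B, passed the detection filter only through the compound where it is higher. Only the interval of MMP1 reaches 2-fold, and most responders straddle 0.

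The 5 probes that differed by more than 1.5-fold, named after their values were seen, were LRRC75B, RABIF at -0.71, 1 of the probes for HK2 at -0.61, RSF1 at 0.60 and a probe without a gene symbol at 0.66. HK2 encodes a hexokinase of glycolysis. Its brighter probe, detected on all 8 arrays, differed by -0.15 (95% interval -0.40 to 0.10). RABIF was detected on 5 of the 8 arrays and RSF1 on 7. The RABIF probe was detected on all 4 arrays of compound 2 and on 1 of compound 1, so it passed the filter only through compound 2.

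Each dose level was also tested alone, which made 2 pairs of groups, with p-values adjusted over both. No probe passed at the low level (586 at an unadjusted p below 0.05, 3.37%) or at the high level (972, 5.6%). At the high level 323 of these probes were higher with compound 1 and 649 higher with compound 2. With 2 arrays a group the median standard error was 0.15. The difference between compounds did not itself differ between the levels for any probe after adjustment (786 at an unadjusted p below 0.05, 4.53%).

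CXCL1, a chemokine that attracts neutrophils, had the smallest p at the high level and was singled out after its values were seen. It stood at 1.37 and 1.16 with compound 1 at 5 μM and at 0.28 and 0.38 with compound 2 at 10 μM. At the low level it stood at 0.26 and 0.43 with compound 1 and at 0.42 and 0.44 with compound 2, and the controls lay between, at 0.45 and 1.03. The difference at the high level was 0.94 (95% interval 0.65 to 1.23, unadjusted p = 5.06e-05, adjusted p = 0.88), against -0.085 at the low level. The high arrays of compound 1 were thus above all other compound arrays, while the control replicates differed from each other by more than the low-level groups did. MMP1 was the only probe over 2-fold apart at the high level (1.03, 95% interval 0.31 to 1.76). CSF3, another factor that acts on neutrophils, differed by 0.50 at the low level (95% interval 0.08 to 0.91) and 0.48 at the high level (0.07 to 0.90). Neither passed the adjustment (limma unadjusted p = 0.024 and 0.027). Its means, -1.79 with compound 1 and -2.28 with compound 2, lay between the controls at -2.55 and -1.58.

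The members of 36 lists of pathways, cell states and cell markers were taken next, with the brightest probe of each gene. Since no probe passed at all, none passed in any list. Over all 10,545 genes the median difference was -0.0014, 49.3% were higher with compound 1, and 391 had an unadjusted p below 0.05. Genes of higher level leaned slightly to compound 1. With genes in 5 bins of equal size by level, 45% were higher with compound 1 in the dimmest bin and 55.7% in the brightest, with medians of -0.016 and 0.011. List counts are read against these shares, and members with an unadjusted p below 0.05 are named after their values were seen.

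DOT1L itself was near the detection limit. Its signal gave levels of -2.98 and -2.91 with compound 1 at 1 μM, -2.98 and -2.79 at 5 μM, -3.23 and -2.85 with compound 2 at 2 μM and -3.16 and -3.29 at 10 μM. It was detected on 4 of the 8 arrays, and the difference was 0.22 (95% interval -0.03 to 0.46). A list of DOT1L and its partners held 15 genes, of which 12 were tested. None had an unadjusted p below 0.05, and all 12 intervals lay within 1.5-fold, as for 10,191 of all 10,545 genes. MLLT10, a direct partner of DOT1L, differed by -0.12, and AFF4, a scaffold of the elongation complex, by -0.15. Of 31 HOX and MEIS genes and their partners 9 were tested. They differed by -0.19 to 0.27, and all 9 intervals lay within 1.5-fold, again as for most of all genes. Their median level of -2.47 falls in the dimmest bin. HOXC9, at 0.27, was detected on 3 arrays of compound 1 and on none of compound 2, so it passed the filter only through compound 1.

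Proliferation genes differed little between the inhibitors. Of 40 in the list 38 were tested, 7 of which fell against control and none of which rose with the mean of the compounds. Over all 10,545 genes 572 fell and 739 rose by the same measure. Their median difference was 0.074, and 32 of the 38 were slightly higher with compound 1. For all 38 the interval lay within 1.5-fold, as it did for 10,191 of all 10,545 genes. CDC20, an activator of the anaphase-promoting complex, differed by 0.10 (95% interval -0.10 to 0.30), UBE2C, its partner enzyme for ubiquitin, by 0.036 (-0.14 to 0.21), and CCNB1, cyclin B1, by 0.11 (-0.17 to 0.40). BIRC5, the apoptosis inhibitor survivin, had the only unadjusted p below 0.05, with a difference of 0.21. These genes had a median level of 1.64, which falls in the brightest of the 5 bins.

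Transcripts of the surface proteins used to sort breast cancer stem-like cells differed between the compounds by less than their spread. CD44, the hyaluronan receptor, stood between 4.43 and 4.67 with compound 1 and between 4.58 and 4.72 with compound 2, a difference of -0.040 (95% interval -0.23 to 0.15). CD24, a marker of luminal cells, stood between -1.31 and -1.10 with compound 1 and between -1.39 and -1.005 with compound 2, a difference of -0.017 (-0.26 to 0.22). Of 24 stem cell associated genes 15 were tested, and ALDH3A1 was the only one with an unadjusted p below 0.05. Epithelial genes had a median difference of 0.028 (23 of 38 tested) and mesenchymal genes 0.045 (12 of 28). PKP2, a plakophilin of desmosomes, at -0.37 and EHF, an epithelial transcription factor, at -0.24 had an unadjusted p below 0.05.

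All 16 MHC genes tested were slightly higher with compound 1, against 49.3% of all genes, by 0.019 to 0.29, with a median of 0.087. Only HLA-DMB had an unadjusted p below 0.05. Their median level of 1.86 falls in the brightest bin, where 55.7% were higher with compound 1. A list of the stress factor ATF4 and its targets, genes of amino acid supply among them, had 25 genes tested. Of these, 20 were higher with compound 1 (80%), with a median of 0.081. Their median level of 1.17 falls in the next brightest bin, where 52.9% were higher with compound 1. No lean of a list as a whole was tested. Against control 9 of these 25 fell and none rose, where 572 of all 10,545 genes fell and 739 rose. Between the compounds SESN2, SLC3A2 and SLC1A5 had an unadjusted p below 0.05 (0.32, 0.23 and 0.25). That is 3 of 25, against 391 of all 10,545 genes. In 23 inflammatory and NF-kB genes the median was 0.061, with CSF3 (0.49) and CXCL1 (0.43) higher with compound 1 and IL11 higher with compound 2. TGFB2, which encodes a TGF-beta ligand, leaned to compound 2 by -0.40 (95% interval -0.59 to -0.20, unadjusted p = 0.0012), with no overlap of arrays. Against control TGFB2 was -0.49 with compound 1 and -0.09 with compound 2 (limma adjusted p = 0.029 and 0.65). The 7 genes tested in the list of the nuclear receptor LXR and sterol export had the lowest median of the lists with 5 or more genes tested, -0.0845. None of the 7 had an unadjusted p below 0.05.

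**Figure D4:**
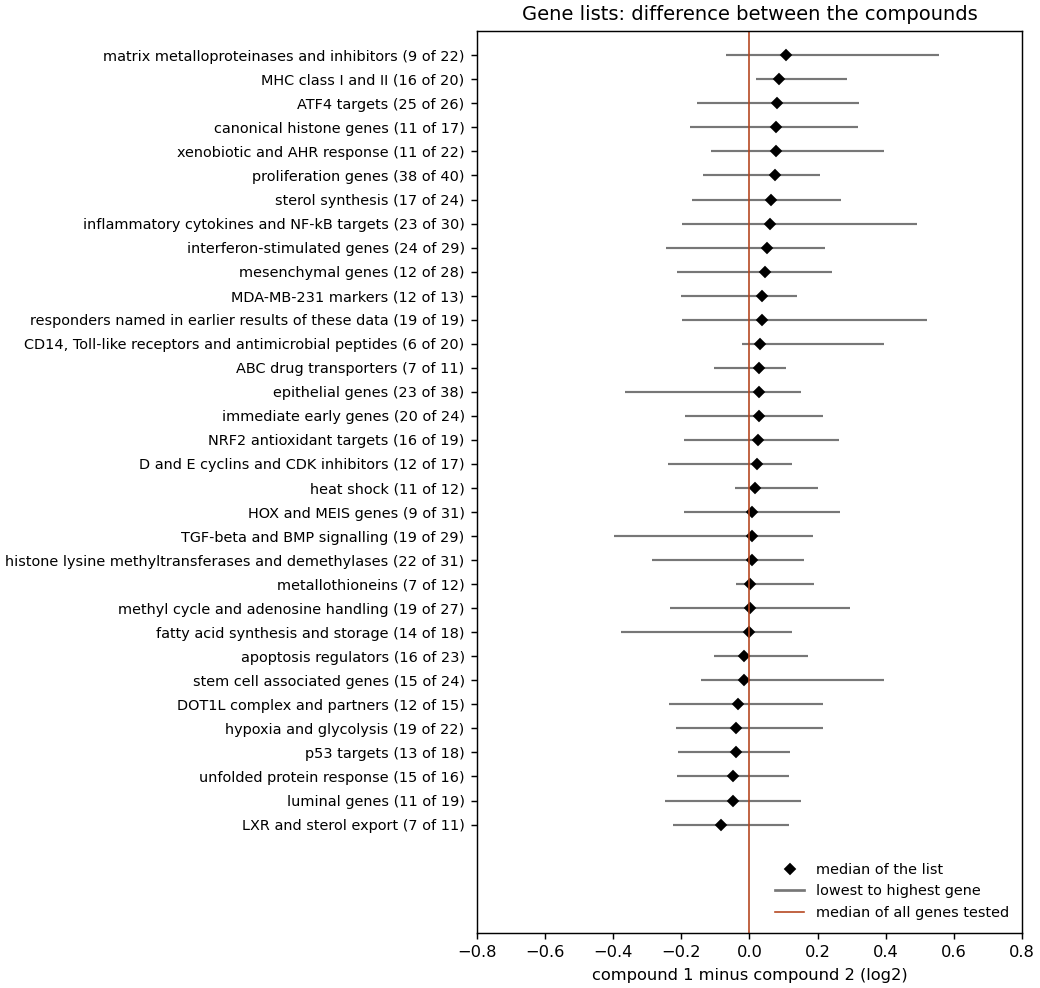
For each list with at least 5 genes tested, the diamond is the median difference between the compounds and the line runs from the lowest to the highest gene (log2); numbers give genes tested of genes in the list. The red line is the median of all genes, -0.0014. List medians lie between -0.0845 and 0.11, and since no probe passed at all, no gene in any list did.

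The arrays carried the transcripts of the labelled line. Of 13 markers of MDA-MB-231 12 were detected on all 8 arrays, among them VIM, CD44 and AXL, and SPARC was detected on none. ESR1, PGR, CDH1, FOXA1, TFF1 and KRT14, which the line lacks, were detected on none, while ERBB2 and EPCAM were detected on all and GATA3 on 1. Among 10 leukocyte markers PTPRC, CD3D, CD3E, ITGAM, LYZ and SPI1 were detected on none, and CD68 and CSF1R on all. CD79A was detected on 7 arrays and MS4A1 on 2. Of 12 fibroblast and endothelial markers 9 were detected on none, while PECAM1 was detected on all 8 arrays, PDGFRB on 7 and DCN on 5. The summed signal of each marker list overlapped between the compounds, as for the MDA-MB-231 markers, at 76,400 to 82,570 with compound 1 and 69,930 to 89,760 with compound 2.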

How the data were processed

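RNA of 12 samples was hybridized to Illumina HT-12 v4 arrays. The deposited intensity values are BeadStudio bead signals (version not given in the sources used here), background-subtracted by the authors and not normalized. The deposited detection p-values were derived by BeadStudio from negative control beads. Their line order does not match that of the signals (rank correlation -0.0041 to 0.0029), so within each array the highest signal was given the lowest p. For the series matrix the authors raised signals below 1 to 1, took log2 and set each array's median to 0, and it served as an alternative; its columns for the 2 replicates of compound 2 at 10 μM are exchanged against the signal table, which touches replicate numbers only. Of 47,324 lines 2 were damaged and left out.

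Signals went through normexp (limma 3.58.1, R 4.3.3, offset 16) and log2, then had subtracted the median of the 11,807 probes with detection p below 0.01 on every array. The filter for testing was p below 0.05 on both arrays of a compound group. limma fitted compound and dose level to the 8 compound arrays (5 residual and 4.73 prior degrees of freedom), group means for each level and the interaction, and all 12 arrays for values against control, with Benjamini-Hochberg adjustment over all probes (over both levels together for the dose levels). The fit was tested on simulated arrays. Alternatives covered background correction, centring, filter, source, model, replicate block and left-out arrays. Symbols were updated through Entrez identifiers (30,113 probes with 1 symbol, 8 with several, 17,201 with none).

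Named genes were those that passed or, with fewer than 5 in a direction, the 5 with the smallest p, and responders named in earlier results. Members, lists and tests were chosen with earlier results of these data known. On the 8 arrays 34.6% to 36.7% of probes were detected, and the number of arrays limits the precision.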

Additional observations from a re-analysis of the deposited data

How the results depend on the processing

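The number of probes called different between the compounds was 0 with doses pooled, at the low dose level and for the interaction under all 21 alternatives. At the high dose level it was 0 under 20 and 1 under a trended prior, which called CXCL1, higher with compound 1 (adjusted p = 0.044). Leaving out each of the 8 arrays in turn gave 0 to 0 calls for each of the 4 counts, with 3.19% to 6.72% of probes at an unadjusted p below 0.05 with doses pooled. The replicate block gave 0 calls with doses pooled, with 676 probes at an unadjusted p below 0.05, and 0 for the other 3 counts. The replicate numbers do not pair the samples: deviations of the arrays numbered 1 correlated at -0.38 to 0.22, above 0.1 in 1 of 6 pairs.

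Of the 28 named genes, 7 changed sign under some alternative, all with intervals across 0 in the reported fit. Centred on all probes, CST1 was 0.024 and CD24 0.011. In the series matrix CCND2 was -0.0048 and ACTA2 -0.0035. With both arrays that stand apart left out, a setting chosen after seeing the data, CST1 was 0.014, ACTA2 -0.064 and CD44 0.010. Without 1 array at a time, CST1 ran from -0.025 to 0.031, CA12 from -0.12 to 0.023, CCND2 from -0.059 to 0.067, ACTA2 from -0.039 to 0.051, CD24 from -0.094 to 0.061, CD44 from -0.068 to 0.013 and CCNB1 from -0.0041 to 0.22. The 5 genes with the smallest p in each direction kept their sign under every alternative run for them, 21 or, for ISM1, SLC9A5, LRRC75B, VSIG10 and PAFAH2, 20, since those fell out when detection on all 8 compound arrays was required. ISM1, SLC9A5 and LRRC75B moved to 0.81, 0.76 and -1.09 with signals below 1 set to 1. Array weights and the fit without dose level were also added after seeing the data. Signal over background limits the dim genes: the interval reached a median of 0.29 to either side in the dimmest bin of genes and 0.19 in the brightest.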
